A study of Caenorhabditis elegans with 12 samples.

Results

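A set of 10 genes that act in the *C. elegans* germ line, in the control of proliferation, in P granules, in meiosis and in the choice between sperm and oocyte, were followed across wild-type, *nhr-62*, *eat-2* and double mutant animals. They are *glp-1* (F02A9.6), *gld-1* (T23G11.3), *glh-1* (T21G5.3), *pgl-1* (ZK381.4), *htp-3* (F57C9.5), *him-3* (ZK381.1), *rec-8* (W02A2.6), *syp-1* (F26D2.2), *fog-1* (Y54E10A.4) and *fog-3* (C03C11.2). The genes were picked by name for their roles, with earlier results of these data known, and are 10 of the 45836 genes in the count table. All 10 were among the 15344 genes with enough reads to test.

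RNA was taken from whole, hand-picked animals at day 0 of adulthood, before they carried eggs, grown at 20 °C on OP50 bacteria. The 4 genotypes, with 3 libraries each, were the N2 wild-type strain, *eat-2(ad465)*, *nhr-62(tm1818)* and the double mutant of both alleles, labelled *nhr-62;eat-2*. The *eat-2* gene encodes an acetylcholine receptor subunit of the pharynx, and its mutants feed slowly and serve as a genetic model of dietary restriction, while *nhr-62* encodes a nuclear hormone receptor. The *tm1818* deletion removes part of the gene and may leave a short form of the receptor intact. Both *eat-2* and the double mutant carry *eat-2(ad465)*, so that a comparison between them asks what the loss of *nhr-62* does in restricted animals. Each library pools many animals, and p-values measure the spread between libraries.

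The germ line of *C. elegans* is laid out in order along each gonad arm. Germ cells divide at the distal end while the Notch receptor GLP-1 is active, enter meiosis as they move away, assemble axes and the synaptonemal complex between paired chromosomes, and then become sperm and, later in life, oocytes. In whole animals, fewer germ cells and less RNA per germ cell cannot be told apart.

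Total counts per library ran from 18260311 to 44753083. Counts were scaled by TMM and are given as normalized read counts, that is, counts brought to a common library size. The targeted genes are a weak check of the labels. Normalized counts of *nhr-62* were 124.4 to 189.7 in N2, 133.6 to 169 in *eat-2*, 129.1 to 142.4 in *nhr-62* and 90.67 to 124.1 in the double mutant, and those of *eat-2* were 7.64 to 21.05, 0.9441 to 7.302, 8.376 to 16.7 and 0 to 4.81 in the same order. By the mean log2 level of the marker lists, 1 library stood apart. In *eat-2* replicate 1 the hypodermal markers stood at 1.14 relative to all libraries, against -0.32 to 0.50 in the others. That mean gives each marker the same weight. By share of counts the library did not stand apart, with 0.188% for these markers against 0.1615% to 0.2264% in the others.

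In wild-type animals, the 10 transcripts spanned a wide range of levels. Per kilobase of annotated exon, *gld-1* stood highest, at 423.1 ± 9.4 CPM (counts scaled to library size) per kilobase (SD, n = 3). It was followed by the P granule genes *pgl-1* at 197.3 ± 9.6 and *glh-1* at 193.9 ± 16.1, whose libraries overlapped. Then came *him-3* at 81.69 ± 2.5 and *glp-1* at 79.15 ± 3.3, which also overlapped, *htp-3* at 46.31 ± 1.5 and *rec-8* at 39.98 ± 1.2, which did not, and *syp-1* at 21.29 ± 0.28. The sperm-fate genes stood lowest, with *fog-1* at 10.88 ± 0.42 and *fog-3* at 1.245 ± 0.45. In the Ensembl 115 annotation of the WBcel235 build, 5 of the genes lie on chromosome I (*gld-1*, *glh-1*, *htp-3*, *fog-1* and *fog-3*), 1 on III (*glp-1*), 3 on IV (*pgl-1*, *him-3* and *rec-8*) and 1 on V (*syp-1*). The reads were aligned to an older build, so no coordinates are given.

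To see how dietary restriction bears on these genes, *eat-2* animals were compared with N2. After TMM scaling, 7 of the 10 transcripts fell in *eat-2* at an adjusted p under 0.05, namely *glp-1*, *gld-1*, *glh-1*, *pgl-1*, *htp-3*, *him-3* and *fog-1*, by 12.7% to 23.5%. None rose, while *rec-8*, *syp-1* and *fog-3* did not pass. Of all tested genes, 22.5% were lower by the same rule. These falls depend on the scaling: with libraries scaled by their total counts, 0 of the 10 were lower at an adjusted p under 0.05 and 1, *syp-1*, was higher. Leaving out N2 replicate 2, N2 replicate 3 or *eat-2* replicate 2 reduced the 7 to 4, the fewest with a single library left out. A fit of only N2 and *eat-2* gave 2. Other omissions also removed calls, as *pgl-1* lost its call when any of 9 libraries was left out and *him-3* when any of 8. Without *eat-2* replicate 1 the 7 became 8, as *rec-8* then passed. No change reached 1.5-fold. By the study's thresholds (adjusted p under 0.05, fold over 1.5 and mean normalized count over 10), edgeR called 0 of the 10, against 27.6% of all tested genes. DESeq2 also called 0, whereas 8 of the 10 had an unadjusted p under 0.05 by edgeR, against 59% of all tested genes.

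**Figure D1:**
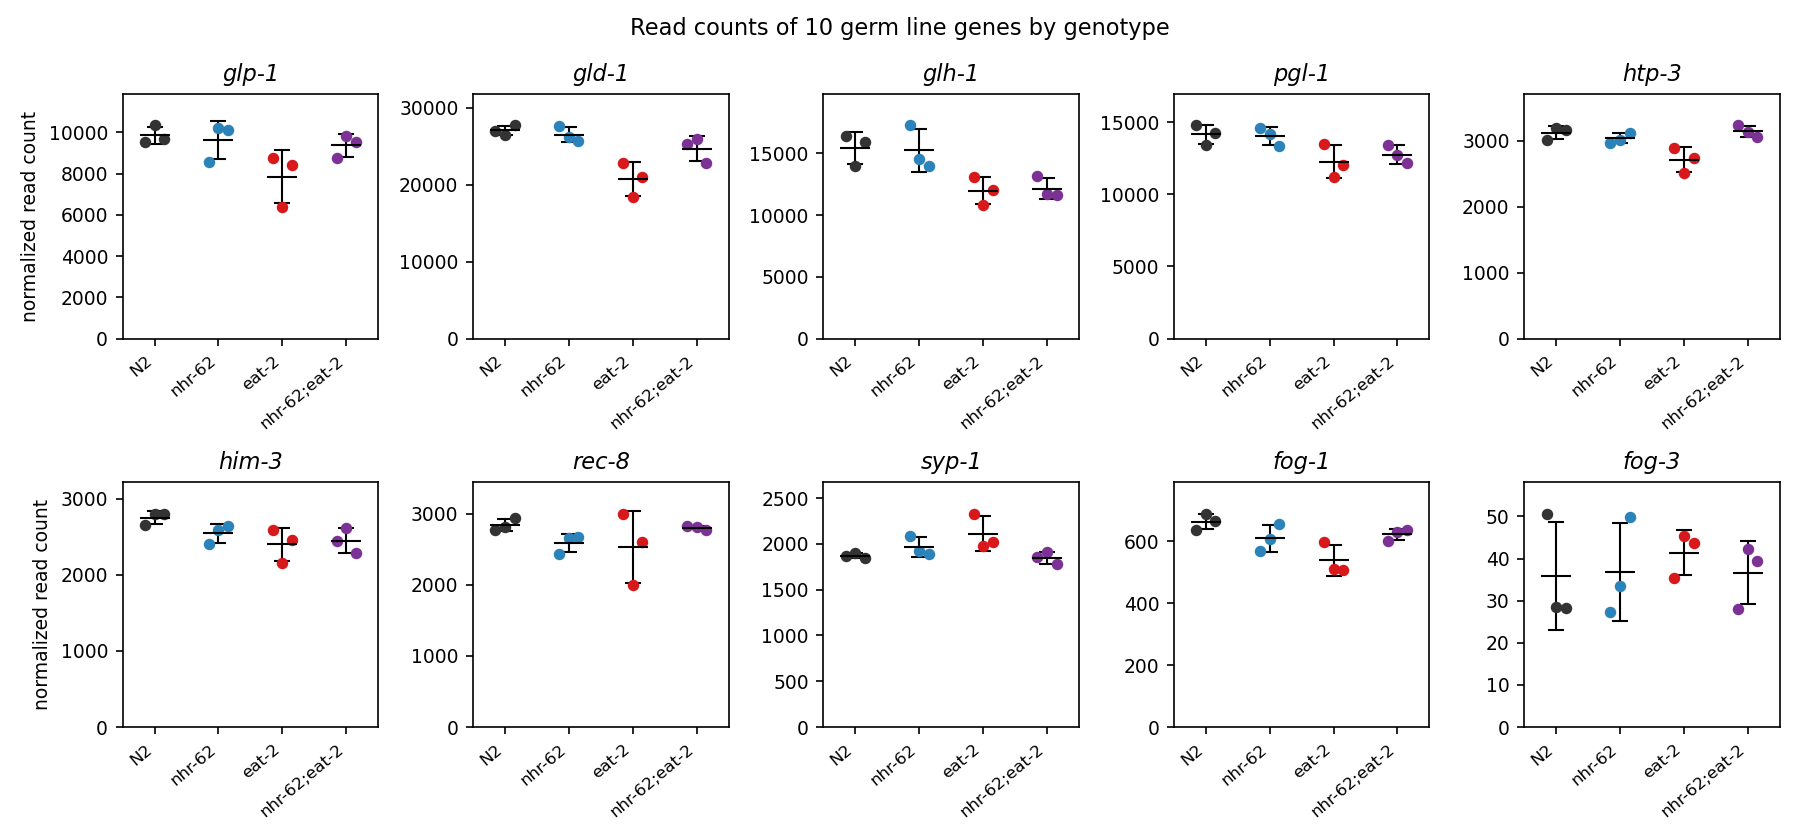
Normalized read counts (y axis, TMM scaling, from 0) of the 10 genes in each genotype (x axis). Points are libraries, and lines and bars are means and SD (n = 3). The 3 *eat-2* libraries lie below all N2 libraries for 6 genes and above them for *syp-1*, an order that holds for this scaling.

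*glp-1* encodes the Notch receptor that keeps distal germ cells dividing. Its normalized counts were 9551, 10340 and 9699 in N2, 8754, 6370 and 8440 in *eat-2*, 8566, 10240 and 10120 in *nhr-62* and 8752, 9819 and 9555 in the double mutant. All *eat-2* libraries lay below all N2 libraries, and *eat-2* replicate 2 was the lowest of the 12. The log2 fold change between *eat-2* and N2 was -0.33 (SE, the standard error, 0.11, adjusted p = 0.0268 by edgeR with Benjamini-Hochberg adjustment). Without *eat-2* replicate 2 it was -0.20, which did not pass (adjusted p = 0.0744).

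*gld-1* encodes a translational repressor of the STAR family that drives germ cells into meiosis and oocyte development. Its normalized counts were 26940, 26500 and 27690 in N2, 22760, 18330 and 20980 in *eat-2*, 27620, 26230 and 25640 in *nhr-62* and 25260, 25940 and 22860 in the double mutant. The *eat-2* libraries lay below all the other 9. This was the largest fall among the 10 genes under TMM, with a log2 fold change of -0.39 (SE 0.085, adjusted p = 0.0033 by edgeR), and it passed with any single library left out. With total counts its value was -0.165, which did not pass (adjusted p = 0.0665 by edgeR). It was the lowest of the 10 there too, but another scaling shifts all genes by nearly the same amount, so that rank is no further support. The ratio of *glp-1* to *gld-1* counts, which does not depend on the scaling, was 0.35 to 0.39 in N2 and 0.347 to 0.402 in *eat-2*, and these ranges overlapped.

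*glh-1* and *pgl-1* encode a Vasa-like helicase and a scaffold protein of P granules, the RNA-rich bodies on the surface of germ cell nuclei. Normalized counts of *glh-1* were 16450, 14010 and 15930 in N2, 13060, 10850 and 12000 in *eat-2*, 17270, 14540 and 14000 in *nhr-62* and 13150, 11700 and 11610 in the double mutant. The 6 libraries that carry the *eat-2* mutation lay below the 6 that do not. The fall in *eat-2* was -0.37 on the log2 scale (SE 0.10, adjusted p = 0.00965 by edgeR). Normalized counts of *pgl-1* were 14790, 13420 and 14280 in N2, 13480, 11220 and 12080 in *eat-2*, 14580, 14200 and 13390 in *nhr-62* and 13450, 12710 and 12160 in the double mutant. Here the N2 and *eat-2* libraries overlapped, and the log2 fold change was -0.21 (SE 0.078, adjusted p = 0.0408 by edgeR), which lost its call when any of 9 libraries was left out (adjusted p up to 0.135). *glh-1* has close paralogs, and how reads shared with them were counted was not tested.

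The meiotic axis, on which homologous chromosomes are organized, was represented by the HORMA-domain proteins HTP-3 and HIM-3 and by the cohesin subunit REC-8. Normalized counts of *htp-3* were 3008, 3199 and 3165 in N2, 2888, 2508 and 2745 in *eat-2*, 2973, 3020 and 3126 in *nhr-62* and 3234, 3139 and 3062 in the double mutant. The *eat-2* libraries lay below all the others, with a log2 fold change against N2 of -0.20 (SE 0.062, adjusted p = 0.016 by edgeR). Normalized counts of *him-3* were 2652, 2802 and 2797 in N2, 2591, 2162 and 2457 in *eat-2*, 2405, 2585 and 2646 in *nhr-62* and 2450, 2613 and 2293 in the double mutant. The *eat-2* libraries again lay below those of N2, and the log2 fold change was -0.19 (SE 0.076, adjusted p = 0.0476 by edgeR), a call lost when any of 8 libraries was left out (adjusted p up to 0.154). With total counts both log2 fold changes were slightly above 0, at 0.02 for *htp-3* and 0.03 for *him-3*.

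Normalized counts of *rec-8* were 2776, 2806 and 2934 in N2, 2995, 1994 and 2598 in *eat-2*, 2437, 2661 and 2667 in *nhr-62* and 2822, 2810 and 2775 in the double mutant. The *eat-2* libraries were spread on both sides of the N2 libraries, with the lowest and the highest value of all 12. The log2 fold change was -0.17 (SE 0.11, adjusted p = 0.216 by edgeR), with a 95% interval of -0.41 to 0.07. Without *eat-2* replicate 1 it was -0.31 (adjusted p = 0.0193), so that 1 library decided whether it passed.

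*syp-1*, which encodes a central protein of the synaptonemal complex, did not move with *htp-3* and *him-3*. Its normalized counts were 1871, 1897 and 1848 in N2, 2326, 1980 and 2025 in *eat-2*, 2085, 1918 and 1887 in *nhr-62* and 1856, 1908 and 1778 in the double mutant. All *eat-2* libraries lay above all N2 libraries, the opposite of the order seen for *htp-3* and *him-3*. The log2 fold change against N2 was 0.17 (SE 0.070, 95% interval 0.02 to 0.33), which missed the threshold under TMM (adjusted p = 0.0561 by edgeR). It passed with total counts, at 0.40 (adjusted p = 0.000355), and without *eat-2* replicate 2 or *nhr-62* replicate 1. With single libraries left out it ran from 0.096 to 0.214, with adjusted p-values by edgeR of 0.0332 to 0.236. Of all tested genes, 33.2% had *eat-2* libraries wholly above those of N2 and 26.1% wholly below, against 1 and 6 of the 10 genes. Among the other *syp* genes, looked up after their values were seen, *syp-4* and *syp-6* fell (-0.29 and -0.28), while *syp-2* (-0.18, adjusted p = 0.0618), *syp-5* (-0.17, adjusted p = 0.0535) and *syp-3* (0.16, adjusted p = 0.225 by edgeR) did not pass. The value of *syp-3* was close to that of *syp-1*, as was that of the recombination gene *him-5* (0.18, adjusted p = 0.133 by edgeR), also looked up afterwards. Most genes of their lists went the other way, with 21 of 23 axis and synapsis genes and 24 of 26 recombination genes below 0.

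A count ratio within a library needs no scaling. The ratio of *syp-1* to *htp-3* counts was 0.622, 0.593 and 0.584 in N2, 0.805, 0.789 and 0.738 in *eat-2*, 0.701, 0.635 and 0.604 in *nhr-62* and 0.574, 0.608 and 0.581 in the double mutant. The *eat-2* libraries exceeded all the other 9, and the double mutant lay within or just below the N2 range. Over both backgrounds together, the difference in this ratio with the *eat-2* mutation did not pass an exact two-sided permutation test over libraries (p = 0.22, 0.42 after Benjamini-Hochberg adjustment over 14 ratio tests), nor did that with the *nhr-62* mutation (p = 0.125, adjusted 0.42). The annotated exons of *syp-1* share 517 bases with F13A7.14 on the same strand, so that reads there could be assigned to either. F13A7.14, examined after its values were seen, moved the other way, with a log2 fold change of -0.26 in *eat-2* against N2 (SE 0.084, adjusted p = 0.0209 by edgeR).

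**Figure D2:**
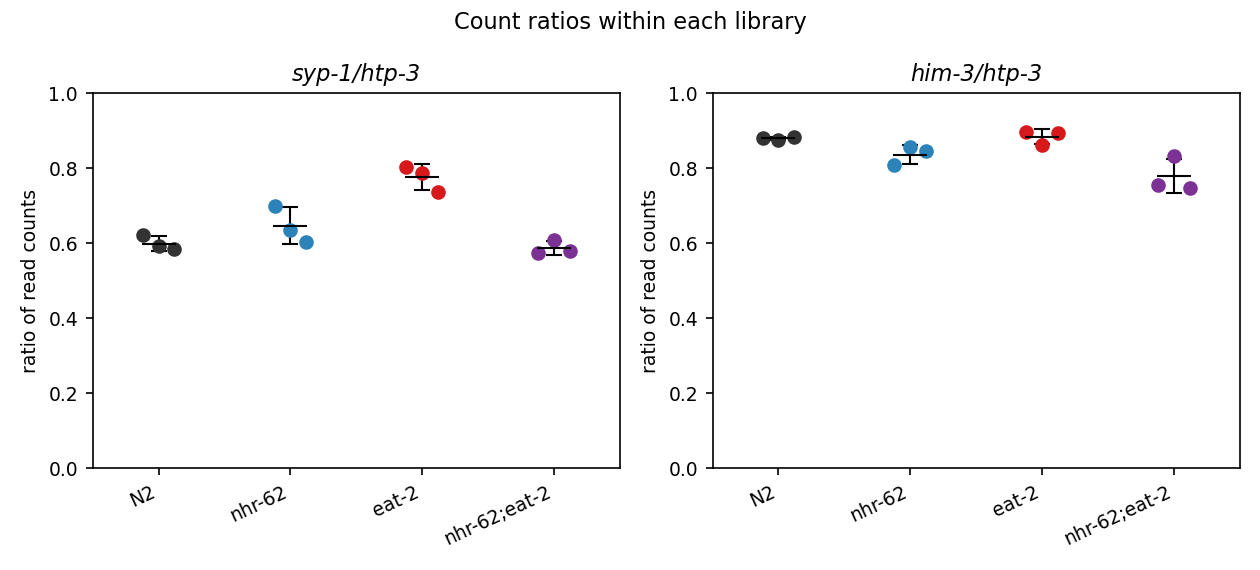
Ratio of read counts within each library (y axis, from 0) for *syp-1* over *htp-3* (left) and *him-3* over *htp-3* (right) by genotype (x axis). Points are libraries, and lines and bars are means and SD (n = 3). The *eat-2* libraries are highest for *syp-1* over *htp-3*, at 0.738 to 0.805, and the 6 libraries with the *nhr-62* mutation are lowest for *him-3* over *htp-3*, at 0.749 to 0.856.

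*fog-1* and *fog-3* encode a CPEB-type RNA-binding protein and a Tob-family protein that together commit germ cells to sperm. Normalized counts of *fog-1* were 637.6, 688.4 and 665.8 in N2, 597.5, 511.7 and 508.1 in *eat-2*, 567.5, 607.1 and 654.8 in *nhr-62* and 601.8, 629.1 and 635.9 in the double mutant. The *eat-2* libraries lay below the N2 libraries, with a log2 fold change of -0.30 (SE 0.088, adjusted p = 0.0137 by edgeR) that passed with any single library left out. It did not pass with total counts (-0.08, adjusted p = 0.533 by edgeR) or with only the genotypes compared (-0.30, adjusted p = 0.0538 by edgeR). *fog-3* was rare, at 18 to 64 reads per library. Its normalized counts were 50.59, 28.42 and 28.38 in N2, 35.29, 45.32 and 43.7 in *eat-2*, 27.22, 33.4 and 49.77 in *nhr-62* and 28.14, 42.31 and 39.44 in the double mutant. These overlapped in every comparison, and the log2 fold change of 0.21 in *eat-2* had a 95% interval of -0.44 to 0.87 (adjusted p = 0.563 by edgeR). That interval includes the -0.30 of *fog-1*, so a fall of that size could not be told from no change.

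Because small changes take their sign from the scaling, the 10 genes were also placed against the median of all tested genes. Under TMM that median was 0.06 and the median of the 10 genes -0.21, and with total counts the medians were 0.28 and 0.02. In either case 8 of the 10 genes lay below the median of all genes, the exceptions being *syp-1* and *fog-3*. Another scaling shifts every gene by nearly the same amount, so this placement is 1 observation whichever scaling is used, and its repetition is no sign of stability. The sign against 0 does depend on the scaling, and *pgl-1*, *htp-3*, *him-3* and *rec-8* changed sign with total counts.

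**Figure D3:**
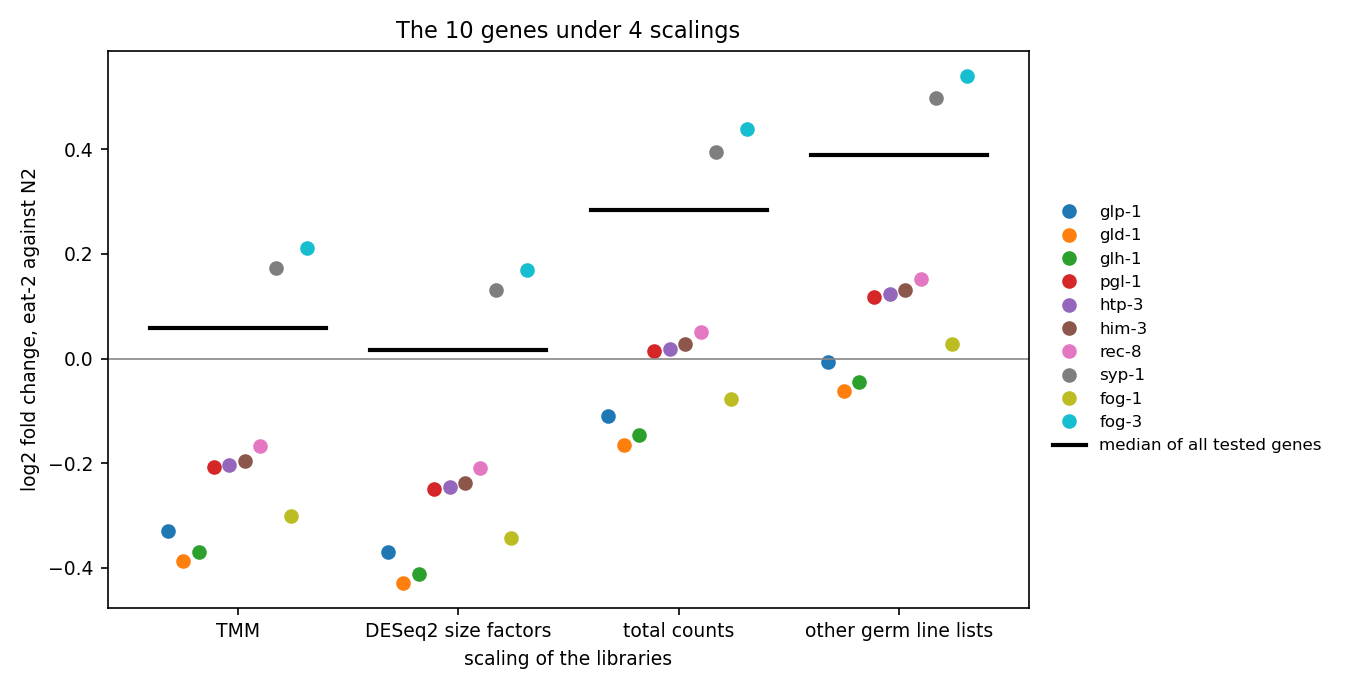
Log2 fold change in *eat-2* against N2 (y axis) of the 10 genes (coloured points) under 4 scalings of the libraries (x axis), with the median of all tested genes as a black line. Points and line shift together by construction, so that the 8 genes below the line stay below it, while the position of the points against 0 changes.

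Other genes of the same processes were taken from 5 lists of 111 tested genes in all. These lists were also chosen with earlier results of these data known, so they are no independent check. In *eat-2* against N2 under TMM, 70 of these 111 fell and none rose at an adjusted p under 0.05, against 22.5% of all tested genes lower and 29.9% higher. With total counts 10 fell and 5 rose, against 4.87% of all genes lower and 40.8% higher. By process, the falls under TMM were 12 of 22 for Notch signalling and mitotic fate, 13 of 18 for sex fate, 16 of 22 for P granules, 15 of 23 for axis and synapsis and 14 of 26 for recombination. The median log2 fold changes of these lists were -0.25, -0.34, -0.32, -0.25 and -0.21 in the same order, and 108 of the 111 genes lay below the median of all genes.

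The 3 genes of each list with the smallest p are named here, and since they were picked by p most of their changes exceed the median of their list. *laf-1*, a DEAD-box helicase gene of the sex fate list, went from 6686 ± 367 normalized counts in N2 to 4178 ± 669 in *eat-2* (SD, n = 3), a log2 fold change of -0.68 (adjusted p = 0.000588 by edgeR), and was the only one of the 111 past all thresholds. The others of that list were *mog-2* (-0.38) and *gls-1* (-0.40). In the Notch and mitotic list *sup-17*, a protease that cleaves Notch receptors, fell by 0.47 on the log2 scale, *mex-3*, an RNA-binding repressor of the mitotic germ line, by 0.39 and *gld-3* by 0.35. Among P granule genes these were *meg-3* (-0.54), *mip-2* (-0.46) and *pgl-3* (-0.35). The meiotic examples were *cra-1* (-0.38), *zyg-12* (-0.32) and *syp-4* (-0.29), and, for recombination, *exo-1* (-0.35), *zhp-3* (-0.34) and *brd-1* (-0.28). Adjusted p-values of these 15 genes were 0.00534 or less.

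Markers of germ cell products moved with the same comparison. Of 53 sperm transcripts tested, 22 were called higher and none lower in *eat-2* against N2, where 23.9% of all tested genes were called higher and 3.61% lower, with a median log2 fold change of 0.55, and the list took 0.0863% to 0.102% of counts in *eat-2* and 0.0384% to 0.0704% in N2. All 21 oocyte transcripts fell at an adjusted p under 0.05, against 22.5% of all tested genes lower by that rule, with a median of -0.44. By the full thresholds used for the sperm transcripts, 1 of the 21 was called lower. That count is too small to set apart from the 3.61% of all tested genes. *fog-1*, which specifies sperm fate, thus fell under TMM in the libraries where sperm transcripts were higher. With total counts its log2 fold change was -0.08, which did not pass (adjusted p = 0.533 by edgeR). Markers of body cells are given beside the same 23.9% and 3.61% of all genes. All 4 pharynx markers and 3 of 7 neuronal markers were called higher, and the 5 muscle markers did not pass. Called higher were also 2 of 6 intestinal, 1 of 7 somatic gonad and 2 of 5 hypodermal markers. All 6 yolk protein genes were called lower. For the neuronal, muscle, intestinal, somatic gonad and hypodermal markers these counts are too few to set apart from the share of all genes. The part of these differences in the values of the 10 genes was not tested.

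**Figure D4:**
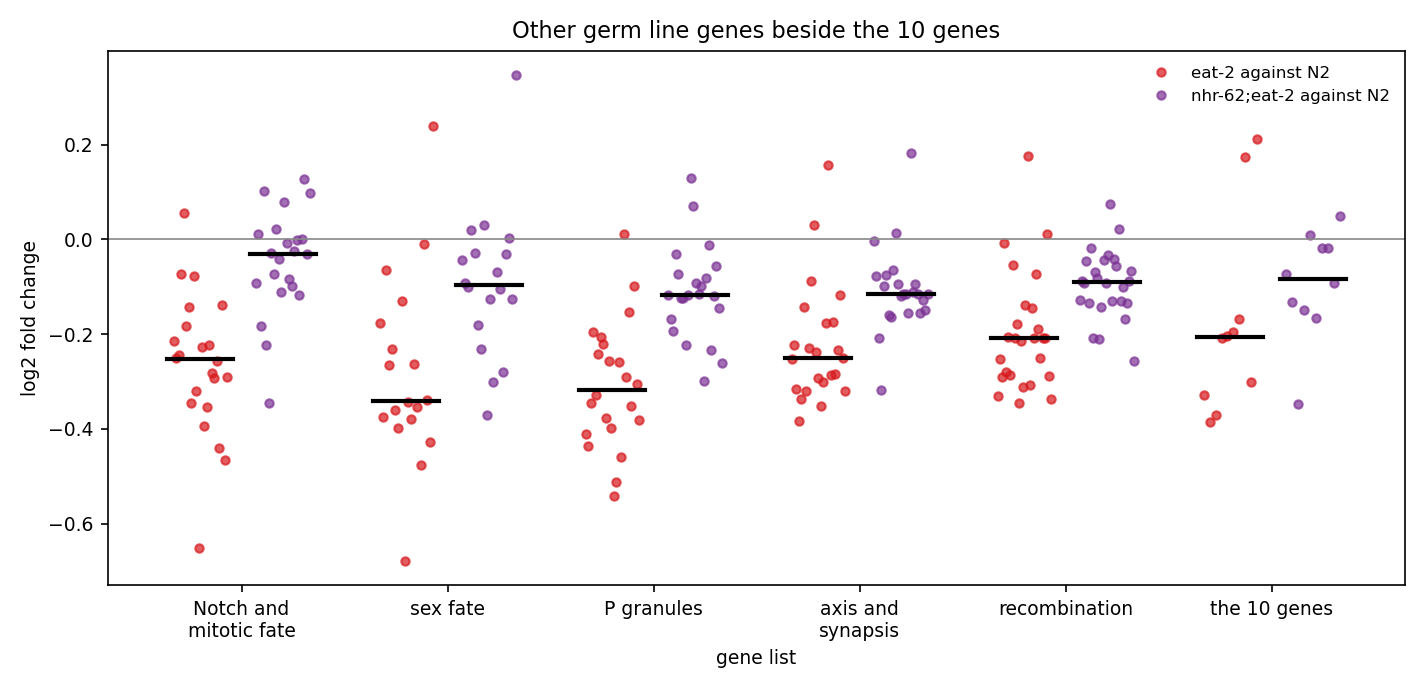
Log2 fold change (y axis, TMM scaling) of single genes (points) in 5 germ line lists and the 10 genes (x axis), for *eat-2* (red) and the double mutant (purple) against N2. Black lines are medians, which lie at -0.34 to -0.21 for *eat-2* and at -0.12 to -0.03 for the double mutant under this scaling.

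To ask what *nhr-62* contributes in restricted animals, the double mutant was compared with *eat-2*. Of the 10 genes, 8 had a log2 fold change above 0, with a median of 0.10 against -0.03 for all genes, but only *htp-3* rose at an adjusted p under 0.05 (0.21, SE 0.062, adjusted p = 0.0477 by edgeR), against 4.48% of all genes. That call was lost when any of 8 libraries was left out (adjusted p up to 0.144), and with total counts no gene rose and 1, *syp-1*, fell. By all thresholds edgeR called 0 of the 10, against 5.44% of all genes. DESeq2 also called 0, with 2 of the 10 at an adjusted p under 0.05. By edgeR 5 had an unadjusted p under 0.05, against 33.2% of all genes.

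The double mutant libraries lay wholly above those of *eat-2* for 3 genes, *gld-1*, *htp-3* and *fog-1*, and wholly below for 1, *syp-1*, against 16.1% and 21.8% of all tested genes. The log2 fold changes were 0.26 for *gld-1* (SE 0.085, adjusted p = 0.0681), 0.21 for *fog-1* (SE 0.088, adjusted p = 0.123) and -0.19 for *syp-1* (SE 0.070, adjusted p = 0.0868), none of which passed by edgeR. With DESeq2, *gld-1* did pass (0.28, adjusted p = 0.0194). *glp-1* stood at 0.26 (SE 0.11, adjusted p = 0.132) with overlapping libraries. Values near 0 were 0.02 for *glh-1* (95% interval -0.20 to 0.24), 0.06 for *pgl-1* (-0.11 to 0.23) and 0.03 for *him-3* (-0.14 to 0.195). The interval of *pgl-1* includes a rise the size of its fall in *eat-2* (-0.21), and that of *him-3* ends at the size of its fall (-0.195). For *pgl-1* and *him-3*, staying at the *eat-2* level could thus not be told from a full return. The values for *rec-8* (0.15, adjusted p = 0.367) and *fog-3* (-0.16, adjusted p = 0.735) did not pass either.

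Of the 111 other germ line genes, 16 rose and none fell in the double mutant against *eat-2* at an adjusted p under 0.05. They were 7 of the Notch and mitotic list, 5 of the P granule list, 3 of the sex fate list and 1 of the recombination list. *mex-3* went from 9926 ± 520 normalized counts in *eat-2* to 12970 ± 264 in the double mutant (SD, n = 3), which overlapped the 12100 to 13720 of N2, a log2 fold change of 0.39 (adjusted p = 0.00966 by edgeR). *sup-17* (0.43) and the Pumilio-family gene *puf-3* (0.29) of the same list also rose, as did *meg-2* (0.47), *meg-3* (0.45) and *pgl-3* (0.23), *tra-3* (0.30), *fem-2* (0.28) and *daz-1* (0.28), and *exo-1* (0.20). The next genes by p-value did not pass, namely *com-1* and *him-17* (adjusted p = 0.0807 each), *zyg-12* (0.0533), *him-1* (0.0868) and *syp-4* (0.0882). Of the oocyte markers, 17 of 21 rose with a median of 0.39, and 7 of 53 sperm markers fell with a median of -0.59, against 4.48% of all genes higher and 6.1% lower. With total counts 3 of the 111 rose.

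The double mutant was then set against N2, whose libraries are also the reference of the first comparison. Only *glh-1* was lower at an adjusted p under 0.05, with a log2 fold change of -0.35 (SE 0.10, adjusted p = 0.0447 by edgeR), against 4.15% of all genes. This call was lost when any of 8 libraries was left out (adjusted p up to 0.17). The libraries of the double mutant lay wholly below those of N2 for 4 genes, *gld-1* (-0.13), *glh-1*, *him-3* (-0.17) and *fog-1* (-0.09), against 16.9% of all genes, and the other 3 of these did not pass. The log2 fold changes of *htp-3* (0.01, 95% interval -0.12 to 0.14), *syp-1* (-0.02, -0.17 to 0.13) and *rec-8* (-0.02, -0.26 to 0.22) lay close to 0. Those of *glp-1* (-0.07), *pgl-1* (-0.15) and *fog-3* (0.05) did not pass. By all thresholds edgeR called 0 of the 10, against 6.63% of all genes, as did DESeq2. By edgeR 2 had an unadjusted p under 0.05, against 28.5% of all genes. Of the other germ line genes, 6 of 111 were lower at an adjusted p under 0.05, close to the 4.15% of all genes. The count therefore does not set these lists apart. Among the 6 were *laf-1* (-0.37), *cra-1* (-0.32), *mog-2* (-0.30) and *mip-2* (-0.30).

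**Figure D5:**
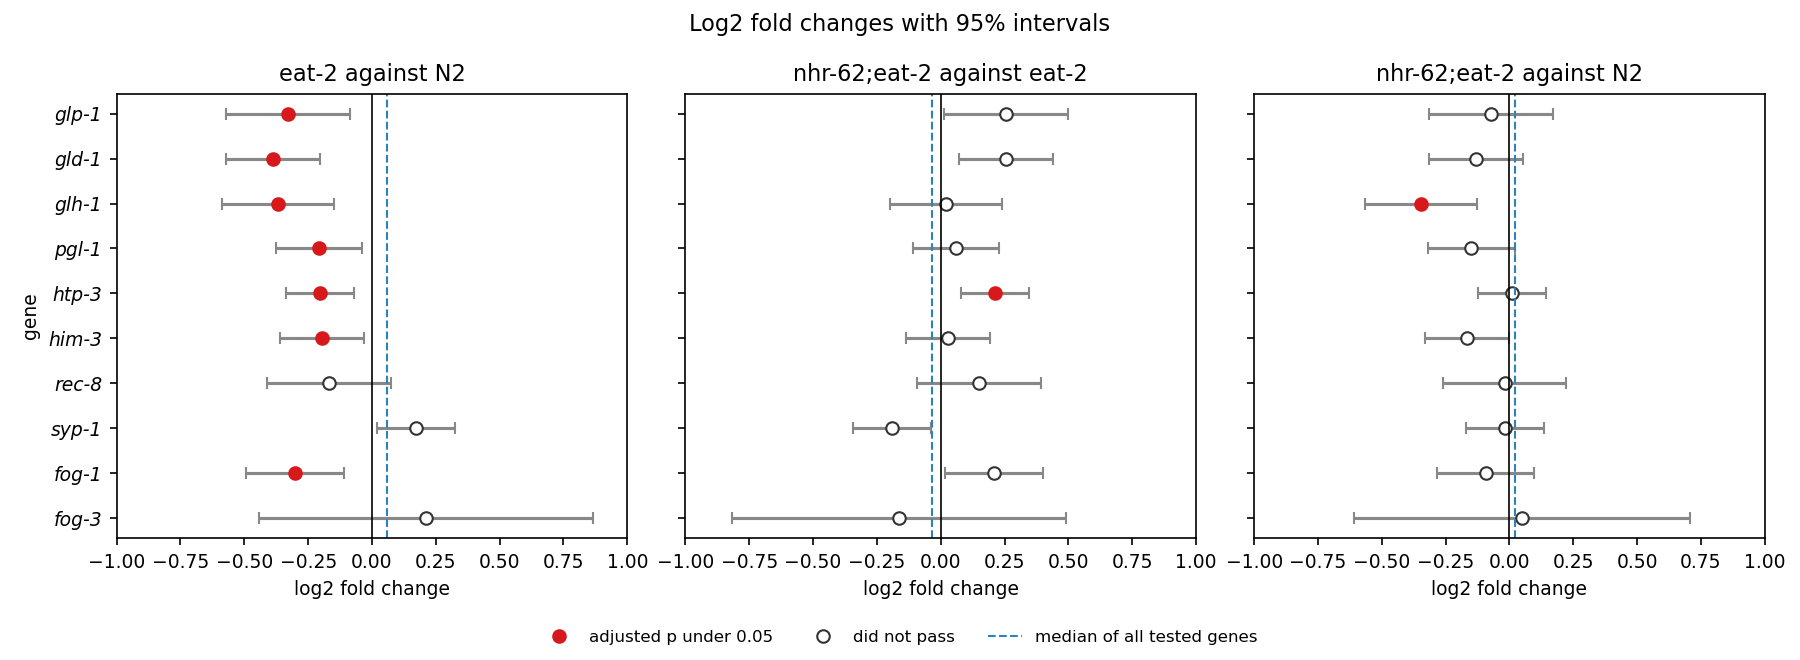
Log2 fold change (x axis, TMM scaling) with its 95% interval for each of the 10 genes (y axis) in 3 comparisons. Filled points passed an adjusted p under 0.05, and the dashed line is the median of all tested genes. In *eat-2* 7 genes are filled, in the double mutant against *eat-2* only *htp-3*, and in the double mutant against N2 only *glh-1*, all under this scaling.

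The *eat-2* mutation was also present or absent between the double mutant and *nhr-62* animals, which asks for its effect without *nhr-62*. Again only *glh-1* fell, with a log2 fold change of -0.33 (SE 0.10, adjusted p = 0.0399 by edgeR), against 6.84% of all genes. The call was lost when any of 7 libraries was left out (adjusted p up to 0.142). The libraries did not overlap for *glh-1*, lower, and *rec-8*, higher at 0.11 (adjusted p = 0.482), against 19.3% and 26.1% of all genes. By all thresholds edgeR and DESeq2 called 0 of the 10, against 10.9% of all genes. By edgeR 1 had an unadjusted p under 0.05, against 36.2% of all genes.

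In animals that fed normally, no change in any of the 10 genes passed the test on loss of *nhr-62*. Log2 fold changes between *nhr-62* and N2 ran from -0.13 for *rec-8* to 0.07 for *syp-1*, and the adjusted p was 1 for each by edgeR. By edgeR, 0 of the 10 passed all thresholds, the adjusted p or an unadjusted p under 0.05, and DESeq2 gave 0 for the first 2. Of all genes, edgeR called 0.104%, and 3.19% had an unadjusted p under 0.05. The *nhr-62* libraries lay wholly below those of N2 for *him-3* (-0.11, 95% interval -0.28 to 0.05) and *rec-8* (-0.13, -0.37 to 0.11), against 4.17% of all genes. For *glp-1* the interval was -0.28 to 0.21 and for *gld-1* -0.21 to 0.16.

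Whether the *eat-2* effect differed with and without *nhr-62* was tested by the interaction of both mutations. It passed for 0 of the 10 genes by edgeR, with adjusted p-values of 0.236 to 0.907, and for 0 by DESeq2, while 0.261% of all genes passed. At an unadjusted p under 0.05 there were 4 genes, *gld-1* (0.28, SE 0.12), *htp-3* (0.25, SE 0.087), *fog-1* (0.33, SE 0.12) and *syp-1* (-0.26, SE 0.099), compared with 14.3% of all genes. For *glh-1* and *pgl-1* the interaction was 0.04 (95% interval -0.27 to 0.35) and 0.07 (-0.17 to 0.31). An effect of the *eat-2* mutation that differs between the backgrounds is therefore not shown for any single one of the 10.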

How the data were processed

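The deposited table holds whole-number read counts per gene for 12 libraries. The authors clipped adapters, aligned reads with TopHat 1.3 using gene models and 1 alignment per read, and obtained gene counts with HTSeq. The sources used here do not say whether strand was considered, so reads of overlapping genes cannot be told apart. Genes were named by sequence name, and 45369 of 45836 matched the Ensembl 115 annotation (WBcel235), which gave the exon lengths.

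Genes were kept by filterByExpr, scaled by TMM and fitted with edgeR 4.0.16 (R 4.3.3) in 1 quasi-likelihood model over all 12 libraries, with Benjamini-Hochberg adjustment over 15344 genes. Tests are two-sided. DESeq2 1.42.0 was an alternative. The members and lists were chosen with earlier results of these data known. Genes named outside the 10 are the 3 with the smallest p of each germ line list in *eat-2* against N2 and in the double mutant against *eat-2*, and the 3 nearest in profile to *fog-1*, *fog-3* and *glp-1*. Named besides these were the targeted genes and, after their values were seen, the other *syp* genes, *him-5* and F13A7.14. Ratio pairs were picked by hand. The other alternatives were other scalings, a test against a 1.5-fold change, no filter, a replicate block, replicates 2 and 3 only, only the genotypes compared, and each library left out. All 3 same-numbered pairs deviated together (r over 0.1) only between *nhr-62* and the double mutant, at 0.105 to 0.332. The test was checked on simulated data. Libraries of the same genotype differed by more than sampling noise. Sequences were not used here.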

Additional observations from a re-analysis of the deposited data

How the results depend on the processing

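Under TMM, 7 of the 10 genes fell in *eat-2* against N2, and the adjusted p alone accounted for 7, 1, 1 and 1 genes in *eat-2* against N2 and in the double mutant against *eat-2*, N2 and *nhr-62*, where the full thresholds gave 0. The 7 became 0 with total counts, with scaling to the other germ line lists (P granules, axis and synapsis, recombination) and with the test against a 1.5-fold change, 2 with only the genotypes compared, and 4 to 8 with single libraries left out. The count of genes that rose there went from 0 to 1 (*syp-1*) with total counts, with scaling to the other germ line lists and with the replicate block, and was 0 to 1 with single libraries left out. The 70 other germ line genes became 10 with total counts and 0 with the 1.5-fold test, and were 49 to 72 with single libraries left out. Scaling to the germ line lists gave 1, but those lists are themselves among the genes counted. Their shared fall is removed there by construction, so that count is no test of the 70.

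In the double mutant against *eat-2*, the 1 gene that rose became 0 with total counts, scaling to the germ line lists, the 1.5-fold test, no filter, replicates 2 and 3 only and only the genotypes compared, 2 with DESeq2, and 0 to 2 with single libraries left out, and the count that fell went from 0 to 1 with total counts and with scaling to the germ line lists. Against N2, the 1 gene (*glh-1*) that fell became 0 with total counts, TMM without the vitellogenin, sperm and oocyte lists, scaling to the germ line lists, the 1.5-fold test and no filter. Against *nhr-62* it became 0 with total counts, scaling to the germ line lists, the 1.5-fold test and replicates 2 and 3 only, and 1 gene rose with scaling to the germ line lists. With single libraries left out, both counts of falls were 0 to 1.

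Signs turned for small values. In *eat-2* against N2, total counts gave 0.027 for *him-3*, 0.019 for *htp-3*, 0.014 for *pgl-1* and 0.051 for *rec-8*, and scaling to the germ line lists 0.131, 0.124, 0.117 and 0.153 for these and 0.027 for *fog-1*. In the double mutant against *eat-2*, total counts gave -0.087 for *glh-1*, -0.081 for *him-3* and -0.051 for *pgl-1*, and scaling to the germ line lists -0.174, -0.169 and -0.138 for these and -0.043 for *rec-8*. Leaving out *eat-2* replicate 2 gave -0.041 for *glh-1* and -0.040 for *him-3*, *nhr-62;eat-2* replicate 1 gave -0.036 for *glh-1*, and *nhr-62;eat-2* replicate 2 gave -0.017 for *him-3*. With single libraries left out, these 2 genes ranged from -0.041 to 0.090 and from -0.040 to 0.088. The sign changes under the 2 scalings follow from the shift of all genes, and the cause of the others was not tested.

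Over 18 pairs of libraries with the same replicate number, deviations from genotype means correlated at -0.212 to 0.332 (median 0.079), 9 were over 0.1, and 8 of 12 libraries were closest to their own number. All 3 pairs were over 0.1 between *nhr-62* and the double mutant (0.332, 0.105 and 0.257) and in no other comparison. There the replicate block left the call of *glh-1* in place (-0.326, adjusted p = 0.00936). In the double mutant against *eat-2* the block moved the number of all genes that fell from 936 to 1700. With the number as a replicate block, *him-3* in *eat-2* against N2 no longer passed (-0.195, adjusted p = 0.0653) and *syp-1* did (0.17, adjusted p = 0.0451). *fog-3* had the fewest reads, 18 to 64 a library, and what limited the precision of each gene was not tested.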

Other observations

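The ratios of counts within a library gave differences that do not rest on any scaling. They were picked among the 10 genes with results known, and 14 exact two-sided permutation tests were run, of either mutation within the other genotype. The ratio of *him-3* to *htp-3* was 0.749 to 0.856 in the 6 libraries with the *nhr-62* mutation and 0.862 to 0.897 in the 6 without, lower by 0.129 on the log2 scale (exact permutation p = 0.005, the smallest that 400 permutations can give two-sided, and 0.035 after adjustment). By genotype it was 0.881 ± 0.0042 in N2, 0.837 ± 0.025 in *nhr-62*, 0.885 ± 0.020 in *eat-2* and 0.779 ± 0.046 in the double mutant (SD, n = 3). The ratio of *glh-1* to *pgl-1* was 0.921 to 0.993 in the 6 libraries with the *eat-2* mutation and 1.02 to 1.18 in the 6 without, a log2 difference of -0.174 (exact permutation p = 0.005, adjusted 0.035). With each library left out, chosen after the values were seen, the differences ran from -0.146 to -0.107 and from -0.191 to -0.149. Exact permutation p-values were up to 0.015 and 0.01. As the libraries with and without the mutation do not overlap, leaving 1 out cannot make them overlap. These p-values were thus bound to stay small and are no further support. The other 12 tests gave adjusted p-values of 0.42 or more.

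Some genes followed the 10 closely over the 12 libraries, which share depth, scaling and genotype. By Pearson's r, as a description, the nearest to *glp-1* were *soap-1* (0.994), *dpy-26* (0.992) and *tmem-131* (0.991), those to *fog-1* were *mlst-8* (0.923), *sld-5* (0.912) and Y57A10A.8 (0.899), and those to *fog-3* were B0285.6 (0.843), *oct-1* (0.824) and K04G11.3 (0.824), the last set on few reads of *fog-3*.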
